A study of Mus musculus with 12 samples.

Results

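Dorsal skin that had been exposed to 2,4-dinitrochlorobenzene (DNCB) was compared with vehicle-treated skin, and the genes described here are those that differed from control in the same direction in all 3 exposed groups, that is, with and without treatment by mesenchymal stem cells (MSCs). All 12 libraries of the series were used, 9 from exposed skin and 3 from control skin. The mice were female BALB/c, an albino strain, aged 6 weeks, and their backs were shaved and treated with hair removal cream before sensitization. The control group (labelled Solvent) received only the vehicle, a mixture of acetone and olive oil. The DNCB group was sensitized with 1% DNCB and then challenged repeatedly with 0.5% DNCB. The scMSC group received the same DNCB and 2000000 human umbilical cord MSCs in each of 4 injections from day 13 to day 25, all 100 μL of them under the skin beside the dermatitis. In the scivMSC group the same dose was split, with 50 μL under the skin and 50 μL into the tail vein. Skin was collected on day 30, 3 libraries represented each group, and no group received MSCs without DNCB. Whether each library came from a single mouse is not given in the sources used here, so the p-values measure the spread between these libraries.

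DNCB is a reactive hapten. It binds skin proteins, which makes them visible to T cells, and repeated application produces a contact allergy with eczema-like features. In such skin keratinocytes divide faster, stress keratins and cornified envelope proteins are made out of their usual place, mast cells and other leukocytes gather, and fibroblasts lay down matrix. Back skin also holds hair follicles that cycle between rest and growth, the pigment cells within them, a layer of fat and a sheet of skeletal muscle, and all of these contribute RNA to a bulk sample. In such samples fewer cells of a type and less RNA per cell cannot be told apart.

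Of 36400 genes in the deposited table, 21890 had a mean of at least 0.1 FPKM (fragments scaled for transcript length and library depth) over the 12 libraries and were tested. Gene positions below are those of the table, which match GRCm38. Myo1a lay just inside that limit and C030010L15Rik just outside it. The estimated counts summed to between 63877153 and 75134001 per library. All 10 markers of skin identity, among them keratins and collagens, passed the limit, and their summed level ranged from 4909 to 21262 FPKM. The 18 skeletal muscle genes summed to between 24861 and 35245 FPKM in the control libraries and between 6532 and 18032 FPKM in the exposed libraries, and the highest exposed value belonged to scivMSC replicate 3. The 100 most abundant genes took between 29.3% and 34.5% of the counts in control libraries, 29.6% in scivMSC replicate 3 and between 22.0% and 24.96% in the other exposed libraries. The part of these differences in the results on other genes was not tested.

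A gene was called where edgeR's quasi-likelihood test gave an adjusted p under 0.05 and the change exceeded 1 on the log2 scale. By this rule 3098 genes (14.2% of those tested) differed between DNCB and control skin, 2040 (9.32%) between scMSC and control skin, and 1500 (6.85%) between scivMSC and control skin. The last count fell to 845 without control replicate 1, 964 without scivMSC replicate 1 and 843 without scivMSC replicate 2. The 3 comparisons share the 3 control libraries. The shared changes comprised 328 genes that were higher in all 3 exposed groups (1.5% of genes tested) and 479 that were lower in all 3 (2.19%). Together these 807 genes made up 26.0% of the DNCB calls, 39.6% of the scMSC calls and 53.8% of the scivMSC calls. The mean over the 3 exposed groups gave wider lists, with 1050 genes higher (4.8%) and 1352 lower (6.18%), and the median of that contrast over all genes tested was 0.03. Scaling by library size alone, without TMM factors, shifted the exposed-mean values up by a median of 0.17. The higher genes then made up 61.1% of the shared set, with 557 higher against 354 lower, instead of 40.6%, and with limma on log2(FPKM + 0.1) they made up 54.7%, with 504 higher against 418 lower. The counts also depended on single libraries. Without control replicate 1 they were 165 higher and 293 lower, without scivMSC replicate 2 they were 212 and 261, and without scivMSC replicate 1 the lower genes numbered 264. At the edge of the fold limit Ccdc34, whose smallest change was 1.00116, and Pdss2, at -1.00212, were just inside, while Tmem260 at 0.999999 and Bhlhe41 at -0.999678 were just outside.

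Among the 328 higher genes 294 were protein coding, and 315 had every exposed library above every control library, a pattern seen in 13.3% of all genes tested. Of the 479 lower genes 420 were protein coding, and 469 had every exposed library below every control library, against 5.97% of all genes tested. The median change of the higher genes was 2.07 in DNCB, 1.98 in scMSC and 1.79 in scivMSC skin on the log2 scale. For the lower genes the medians were -1.90, -1.67 and -1.62. In 59 of the higher genes every control library held at most 12 estimated counts, the floor used here, so the fold change of such a gene has no firm size.

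Hair shaft proteins had the largest changes among the lists with higher genes. The hair shaft is built from its own keratins, which are bundled by keratin-associated proteins, and both are made in follicles that are growing. Of 33 tested genes of the hair shaft and inner root sheath, 7 were higher in all 3 exposed groups, beside 1.5% of all genes. In the exposed mean 27 were higher, beside 4.8% of all genes, and the median change was 4.55. The group medians were 2.08 in DNCB, 6.77 in scMSC and 5.04 in scivMSC skin. Among genes whose symbols mark them as keratin-associated proteins, a family singled out after its values were seen, 16 of 56 tested were higher in all 3 groups and 56 of 56 in the exposed mean.

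Krt34, a hair cortex keratin (chr11:100037347-100041554, minus strand), measured 0.0629, 0.903 and 0.0663 FPKM in the control group, 3.69, 1.42 and 10.2 in the DNCB group, 194, 609.9 and 218 in the scMSC group and 157, 46.4 and 91.6 in the scivMSC group. Every exposed library lay above every control library, but the DNCB libraries were far closer to control than the MSC libraries were. The changes were 3.63 ± 1.06, 9.76 ± 1.34 and 7.92 ± 1.25 (log2 ± SE) in DNCB, scMSC and scivMSC skin, with edgeR adjusted p of 0.028, 0.0014 and 0.0055. The keratin-associated protein Krtap11-1 showed the same order, with 0.0517, 0.957 and 0.0535 FPKM in control, 3.89, 2.18 and 13.5 in DNCB, 233, 741 and 312 in scMSC and 175, 52.4 and 124 in scivMSC skin. Krtap1-3 reached 364 FPKM in scMSC skin against at most 0.333 FPKM in control skin, and it was called in all 3 groups in each of the 12 fits that left out 1 library. Krt34 and Krtap11-1 were called in 9 of those fits and lost the call without DNCB replicate 3, control replicate 1 or control replicate 3. Krt39 and Krtap12-1 had no count in any control library. Against a floor of 12 estimated counts in each control library, the group mean of Krt39 was at least 4.40-fold higher in DNCB, 141-fold in scMSC and 30.3-fold in scivMSC skin. The DNCB libraries of Krt39 were uneven, at 0.347, 0.0358 and 1.15 FPKM, so its DNCB value does not hold for each library. For Krtap12-1 the ratios were 1.78, 180 and 45.5 in the same order. Krtap27-1, also without a count in control skin, had a DNCB mean of only 0.447 times the floor, so its DNCB change has no firm size. Keratin-associated protein genes resemble one another closely, and how reads shared between them were assigned is not stated, so their individual values are uncertain.

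The factors that direct hair shaft formation did not belong to the shared set. Hoxc13, a homeobox factor that switches on hair keratin genes, measured 5.54, 9.75 and 4.56 FPKM in the control group, 6.15, 4.38 and 6.33 in the DNCB group, 29.6, 67.8 and 63.4 in the scMSC group and 30.7, 17.9 and 32.5 in the scivMSC group. Its change in DNCB skin was -0.44 ± 0.39 (edgeR adjusted p = 0.47), and it rose in scMSC and scivMSC skin by 2.86 ± 0.42 and 1.85 ± 0.40. Foxn1, a factor needed for hair shaft differentiation, changed by 0.73 ± 0.30 in DNCB skin (edgeR adjusted p = 0.1) and rose by 2.62 ± 0.32 in scMSC and 1.60 ± 0.31 in scivMSC skin. The summed level of the 33 hair genes was 59.5, 453 and 55.3 FPKM in the control libraries, so control replicate 2 stood apart from the other two. The count of 7 shared hair genes changed with single libraries. It became 21 without control replicate 2, 11 without DNCB replicate 2, 4 without DNCB replicate 1 and 1 without control replicate 3. By edgeR it was 0 without DNCB replicate 3 or without control replicate 1. With all libraries 16 of the 33 genes were higher in all 3 groups at an unadjusted p under 0.05, and DESeq2 called 12 and limma on log2(FPKM + 0.1) 18.

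**Figure D1:**
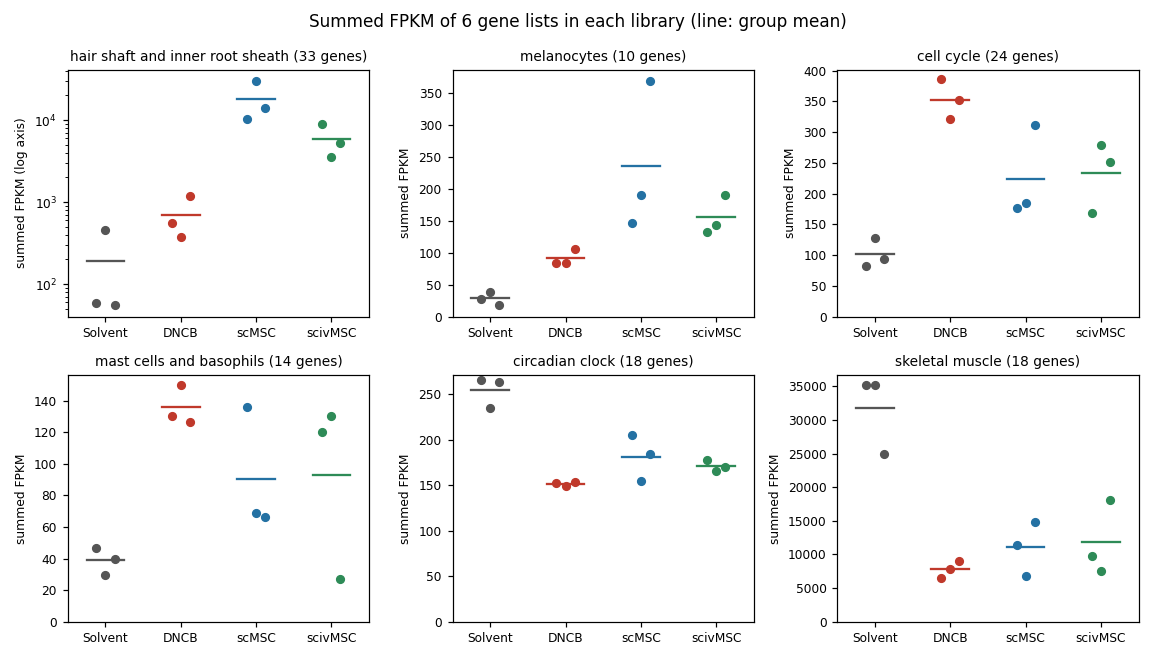
Summed FPKM of 6 gene lists in each of the 12 libraries, with 1 point per library and a line at the group mean. The vertical axis is logarithmic for the hair list and linear from 0 for the others. Muscle genes sum to at least 24861 FPKM in the control libraries and at most 18032 FPKM in the exposed libraries, and hair genes reach 29983 FPKM in 1 scMSC library.

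Pigment genes rose in all 3 exposed groups although the strain is albino. BALB/c mice carry a tyrosinase that does not work, but their melanocytes are present and transcribe the pigment enzymes. Of 10 melanocyte genes tested, 4 were higher in all 3 groups and 8 in the exposed mean, beside 1.5% and 4.8% of all genes. The median exposed-mean change was 2.69. The 4 shared genes were Tyr, Tyrp1 and Dct, the enzymes of melanin synthesis, and Pmel, the scaffold on which melanin is laid down in the melanosome.

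Tyrp1 (chr4:80834123-80851718, plus strand) measured 3.66, 4.68 and 3.13 FPKM in the control group, 16.8, 14.6 and 21.3 in the DNCB group, 38.6, 33.0 and 66.1 in the scMSC group and 37.8, 45.3 and 30.4 in the scivMSC group. All 9 exposed libraries were above all control libraries, and the 6 MSC libraries were above the 3 DNCB libraries. The changes were 2.00 ± 0.27, 3.41 ± 0.29 and 3.11 ± 0.28 in DNCB, scMSC and scivMSC skin, with edgeR adjusted p of 0.00096, 0.00066 and 0.0012. Tyr rose by 2.05 ± 0.49, 3.43 ± 0.52 and 2.89 ± 0.51 in the same order, Dct by 1.66 ± 0.40, 2.76 ± 0.42 and 2.25 ± 0.41 and Pmel by 1.95 ± 0.54, 3.13 ± 0.56 and 2.46 ± 0.55. Calls for Tyrp1, Tyr and Dct in all 3 groups held in each of the 12 fits without 1 library, while Pmel lost its call without DNCB replicate 3 or control replicate 1. The melanocyte transcription factors were not called in all 3 groups. Mitf, which drives the pigment enzymes, changed by -0.11 ± 0.22 in DNCB (edgeR adjusted p = 0.75), 1.48 ± 0.22 in scMSC (adjusted p = 0.002) and 0.54 ± 0.22 in scivMSC skin (adjusted p = 0.13). Sox10, which marks the whole lineage but also Schwann cells, changed by 0.06 ± 0.27 in the exposed mean (edgeR adjusted p = 0.91). In bulk skin its level does not measure melanocytes alone. Without control replicate 2 or with limma on log2(FPKM + 0.1), 6 melanocyte genes were called in all 3 groups.

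The promoters of the pigment enzymes are shown because 3 genes that moved together share a short element known to bind Mitf, the M-box, with the core CATGTG. RefSeq windows of 250 bases before to 50 after the start were available for Tyr, Tyrp1 and Dct, and all 3 held the core on at least 1 strand, as did 11.3% of 17665 promoter windows of the same length. The 160 bases before each start are printed in the direction of transcription on build GRCm38.p6, with the core in capitals. The match lies 21 bases before the start in Tyr (chr7:87493513-87493672, minus strand), 46 in Tyrp1 (chr4:80834053-80834212, plus strand) and 150 in Dct (chr14:118052247-118052406, minus strand), whose window holds another match on the opposite strand that begins 232 bases before the start, outside the printed stretch. A match is a description of the letters only.
Tyr: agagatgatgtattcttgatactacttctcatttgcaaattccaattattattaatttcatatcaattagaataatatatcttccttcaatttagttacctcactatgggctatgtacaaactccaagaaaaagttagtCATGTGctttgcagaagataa
Tyrp1: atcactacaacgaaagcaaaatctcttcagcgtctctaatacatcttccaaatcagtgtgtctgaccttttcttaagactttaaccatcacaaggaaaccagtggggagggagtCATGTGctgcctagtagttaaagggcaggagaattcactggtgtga
Dct: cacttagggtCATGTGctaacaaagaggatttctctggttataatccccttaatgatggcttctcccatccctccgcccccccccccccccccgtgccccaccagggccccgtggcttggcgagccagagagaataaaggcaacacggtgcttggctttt

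Cell cycle genes were the next block. Of 24 genes tested, 11 were higher in all 3 exposed groups and 17 in the exposed mean, beside 1.5% and 4.8% of all genes. The median exposed-mean change was 1.50, with 1.99 in DNCB, 1.11 in scMSC and 1.26 in scivMSC skin. The 11 genes serve DNA replication and mitosis. They were Rrm2, which makes deoxynucleotides, Top2a, which untangles DNA, the cyclins Ccna2, Ccnb1 and Ccnb2, the mitotic kinases Plk1, Bub1 and Bub1b, the spindle proteins Tpx2 and Kif11, and the proliferation marker Mki67.

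Ccnb1 (chr13:100778650-100786570, minus strand) measured 1.03, 2.33 and 1.39 FPKM in the control group, 11.2, 8.73 and 9.98 in the DNCB group, 4.14, 5.57 and 7.52 in the scMSC group and 4.03, 6.38 and 4.58 in the scivMSC group. The lowest exposed library, at 4.03 FPKM, was above the highest control library, at 2.33 FPKM. Its changes were 2.46 ± 0.33, 1.69 ± 0.32 and 1.47 ± 0.32 in DNCB, scMSC and scivMSC skin (edgeR adjusted p of 0.00095, 0.0055 and 0.015). Mki67 rose from 2.99, 5.35 and 4.00 FPKM in control skin to 23.5, 16.1 and 19.6 in DNCB, 10.9, 13.5 and 23.2 in scMSC and 10.6, 16.0 and 16.2 in scivMSC skin. Bub1 rose by 1.98 ± 0.33, Plk1 by 1.85 ± 0.37 and Tpx2 by 1.84 ± 0.28 in the exposed mean. Lmnb1, a nuclear lamina gene known to fall in senescent cells, was higher in all 3 groups by 1.55 ± 0.30, 1.75 ± 0.31 and 1.24 ± 0.30. The number of shared cell cycle genes was 4 without control replicate 1 or scivMSC replicate 2, 6 without control replicate 3, scMSC replicate 3 or scivMSC replicate 3, and 7 without scMSC replicate 2. Bub1 and Tpx2 stayed called in each of the 12 fits. Ccnb1 lost its call without control replicate 1 or scivMSC replicate 2, and Lmnb1 also without control replicate 3 or scivMSC replicate 3. Plk1 lost it without control replicates 1 or 3, scMSC replicates 2 or 3, or scivMSC replicates 2 or 3.

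Promoters of mitotic genes often carry CCAAT boxes. RefSeq windows were matched for 9 of the 11 genes, and all 9 held CCAAT on at least 1 strand, as did 38.2% of the 17665 windows. Ccnb2 and Top2a are shown because each has several copies in the 160 bases before the start. Capitals mark CCAAT or its reverse complement ATTGG. Ccnb2 (chr9:70421555-70421714, minus strand) has 3 copies, which begin 87, 54 and 21 bases before the start, and Top2a (chr11:99024190-99024349, minus strand) has 4, which begin 149, 98, 78 and 58 bases before it. A second element of such promoters, TTTGAA, was in 6 of the 9 windows and in 15.1% of all windows.
Ccnb2: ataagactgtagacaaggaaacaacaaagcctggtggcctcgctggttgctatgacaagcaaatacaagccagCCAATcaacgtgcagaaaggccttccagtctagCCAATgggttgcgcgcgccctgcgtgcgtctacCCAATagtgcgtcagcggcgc
Top2a: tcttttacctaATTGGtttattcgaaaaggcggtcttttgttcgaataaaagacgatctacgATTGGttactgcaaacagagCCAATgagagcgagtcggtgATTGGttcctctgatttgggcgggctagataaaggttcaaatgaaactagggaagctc

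The epidermis kept changes in both directions. Krt77, a type II keratin of the epidermis (chr15:101858731-101869705, minus strand), measured 782, 694 and 1030.3 FPKM in the control group, 1.45, 0.162 and 0.636 in the DNCB group, 32.4, 6.97 and 5.24 in the scMSC group and 10.6, 7.07 and 5.87 in the scivMSC group. No exposed library came above 32.4 FPKM, and none of the control libraries was below 694 FPKM. The changes were -10.30 ± 1.07, -5.99 ± 0.89 and -6.91 ± 0.92 in DNCB, scMSC and scivMSC skin, with edgeR adjusted p of 0.00048, 0.0019 and 0.0043, and the call held in each of the 12 fits without 1 library. Lce1m, a late cornified envelope protein, measured 175, 221 and 325 FPKM in the control group, 3.63, 1.45 and 2.52 in the DNCB group, 125, 66.9 and 28.8 in the scMSC group and 85.5, 51.2 and 58.7 in the scivMSC group, and Adh6a, an alcohol dehydrogenase, measured 23.6, 26.6 and 33.8 FPKM in the control group, 0.477, 0.368 and 0.394 in the DNCB group, 10.6, 7.68 and 7.69 in the scMSC group and 9.27, 5.70 and 6.83 in the scivMSC group. Both fell most in DNCB skin, where Adh6a changed by -6.25 ± 0.25, against -1.85 ± 0.20 in scMSC and -2.12 ± 0.20 in scivMSC skin. The call for Lce1m was lost without control replicate 3, scMSC replicate 2 or scivMSC replicate 2.

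Other epidermal genes were higher in all 3 groups. The connexins Gjb2 and Gjb6 form the gap junctions of keratinocytes and, like Dsc2, Padi4, Tmprss11e and Upp1 below, were singled out after their values were seen. Of 14 connexin genes tested 3 were higher in all 3 groups, the third being Gja1, beside 1.5% of all genes. In the exposed mean 4 connexin genes were higher and 2 lower, with a median of -0.01. Gjb2 (chr14:57098600-57104702, minus strand) measured 8.23, 17.3 and 12.3 FPKM in the control group, 244, 237 and 272 in the DNCB group, 108, 252 and 147 in the scMSC group and 109.7, 183 and 68.0 in the scivMSC group, and its changes were 4.13 ± 0.45, 3.60 ± 0.44 and 3.06 ± 0.43 (edgeR adjusted p of 0.00051, 0.0011 and 0.0045). Sprr1a, a small proline-rich cornified envelope precursor, rose from 44.6, 53.9 and 60.9 FPKM in control to 342, 302 and 324 in DNCB, 568, 1584 and 614 in scMSC and 536, 454 and 299.5 in scivMSC skin. Crnn, the cornified envelope protein cornulin, reached at most 1.13 FPKM in control skin. It measured 9.27, 5.86 and 3.36 FPKM in DNCB, 39.9, 111 and 32.2 in scMSC and 30.2, 12.3 and 16.2 in scivMSC skin. Both genes were lower in DNCB than in scMSC skin, Crnn by -3.36 and Sprr1a by -1.57 (edgeR adjusted p of 0.011 and 0.021). Their differences between DNCB and scivMSC skin were not called. The calls of both genes against control held in each of the 12 fits. Crnn and Sprr1a were highest in scMSC replicate 2, where the hair list also had its highest sum, at 29983 FPKM. Whether their RNA came from the epidermis or from follicles was not tested. The serine protease inhibitor Spink12 had no count in any control library and ranged from 5.73 to 25.1 FPKM in exposed skin. Its group means were 71.8-fold higher than the floor in DNCB, 82.5-fold in scMSC and 49.6-fold in scivMSC skin.

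Further genes were also higher in all 3 groups. Areg, a ligand of the epidermal growth factor receptor, rose by 3.26 ± 0.47, 2.18 ± 0.45 and 1.87 ± 0.45 and the stress keratin Krt17 by 1.70 ± 0.29, 1.05 ± 0.29 and 1.14 ± 0.29 in DNCB, scMSC and scivMSC skin. The desmosomal cadherin Dsc2 rose by 2.92 ± 0.45 in the exposed mean, the peptidylarginine deiminase Padi4 by 3.68 ± 0.44, the serine protease Tmprss11e by 3.98 ± 0.49 and the uridine phosphorylase Upp1 by 3.66 ± 0.39. The cells that Padi4 and Upp1 RNA came from were not tested. Of 24 stress and hyperproliferation genes 2 were higher and 1 lower in all 3 groups, and of 41 cornified envelope and barrier genes 2 were higher and 1 lower, beside 1.5% higher and 2.19% lower among all genes. The exposed-mean medians of these lists were 0.54 and -0.22. Krt6a and Krt16, which are classical stress keratins, were not called in scMSC skin, with changes of 1.20 ± 0.55 (edgeR adjusted p = 0.16) and -0.15 ± 0.76 (adjusted p = 0.92). Krt17 lost its call in all 3 groups without any 1 of the 3 control libraries, scMSC replicate 2, scivMSC replicate 1 or scivMSC replicate 2, and Areg without control replicates 1 or 3 or scivMSC replicates 1 or 2. Dsc2 lost it without control replicate 1 or 2, and Gjb6 without control replicate 1 or scivMSC replicate 2.

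**Figure D2:**
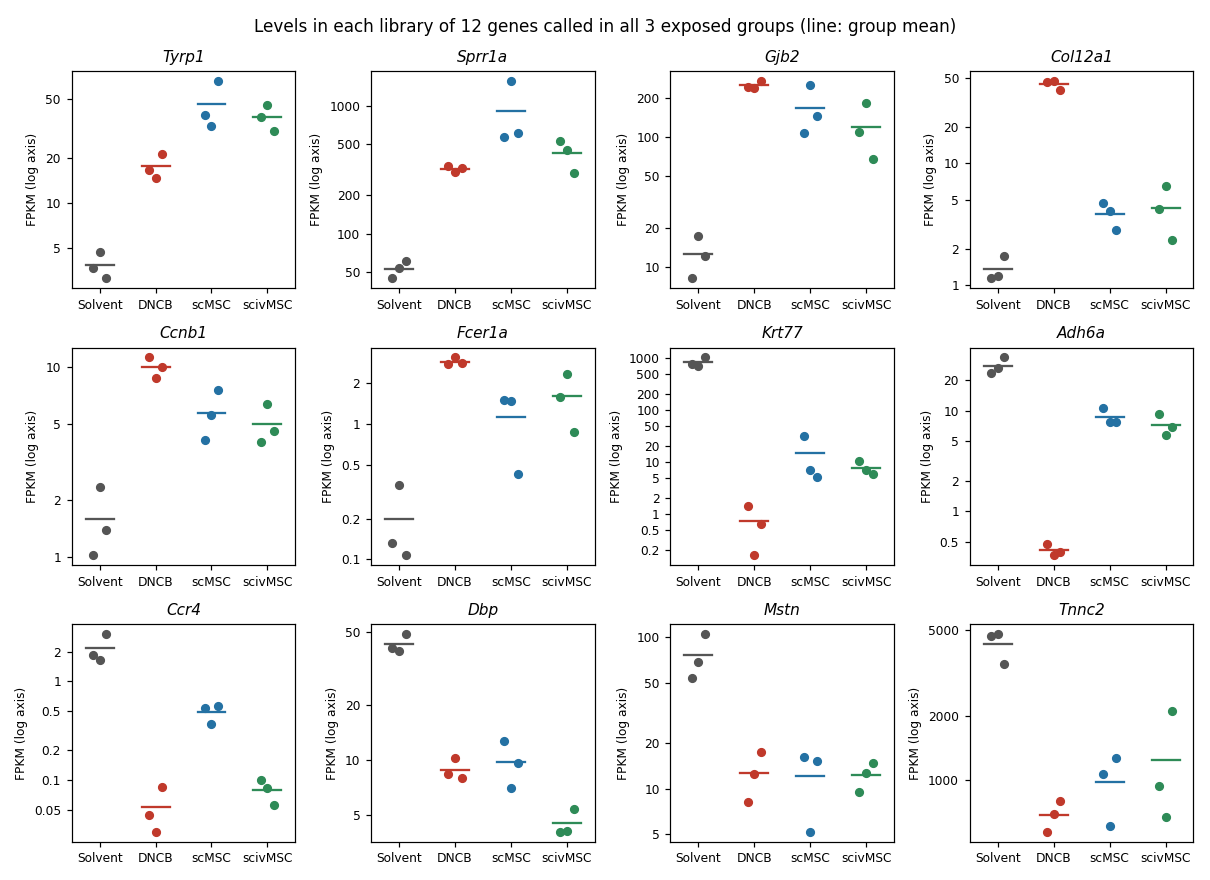
FPKM of 12 genes called in all 3 exposed groups, with 1 point per library, a line at the group mean and a logarithmic vertical axis in each panel. In every panel all 9 exposed libraries lie on one side of the 3 control libraries. Krt77 is at 694 FPKM or more in control skin and at 32.4 FPKM or less in exposed skin.

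Mast cells carry the high-affinity IgE receptor and store tryptase. Of 14 mast cell and basophil genes 2 were higher in all 3 groups and 7 in the exposed mean, beside 1.5% and 4.8% of all genes. Fcer1a, the receptor's alpha chain, measured 0.131, 0.356 and 0.108 FPKM in the control group, 2.75, 3.09 and 2.79 in the DNCB group, 1.49, 1.47 and 0.424 in the scMSC group and 1.58, 2.33 and 0.865 in the scivMSC group, with changes of 3.60 ± 0.64, 2.28 ± 0.61 and 2.74 ± 0.62. Tpsab1, a tryptase that resembles Tpsb2 closely enough to share reads, rose by 4.22 ± 0.81, 2.51 ± 0.76 and 2.91 ± 0.77, but the lowest exposed library, scivMSC replicate 3 at 0.811 FPKM, was close to the highest control library at 0.776 FPKM. The call for Tpsab1 held in only 1 of the 12 fits, the one without scivMSC replicate 3, in which 5 genes of the list were called in all 3 groups. Fcer1a lost its call without control replicate 1 or 3, scMSC replicate 1 or 2, or scivMSC replicate 2. In scivMSC replicate 3 the summed level of the list was 27.4 FPKM, below all control libraries, whereas the other 8 exposed libraries lay between 66.5 and 150.1 FPKM.

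Single genes of immune cells and antigen presentation were lower. Of 16 T cell genes tested, 2 were lower and 0 higher in the exposed mean, beside 6.18% and 4.8% of all genes, with a median of -0.52. In DNCB skin 3 were higher, where 14.2% of all genes were called in either direction. Counts this small lie near the background. The group medians were -0.19 in DNCB, -1.24 in scMSC and -0.33 in scivMSC skin. Their summed level was 38.0 to 48.9 FPKM in control, 84.7 to 87.9 in DNCB, 28.7 to 57.0 in scMSC and 38.8 to 66.1 in scivMSC skin. Of 15 B and plasma cell genes, Ighm was lower and Derl3 higher in the exposed mean, with a list median of 0.07. This too is near the share among all genes, 6.18% lower and 4.8% higher. Ccr4, a chemokine receptor of skin-homing T cells that was singled out after its values were seen, measured 1.86, 1.64 and 3.00 FPKM in the control group, 0.0436, 0.0296 and 0.0848 in the DNCB group, 0.536, 0.368 and 0.559 in the scMSC group and 0.0992, 0.0823 and 0.0554 in the scivMSC group. Exposed libraries reached at most 0.559 FPKM, and the call held in each of the 12 fits. Skint10 and Skint7 belong to a family of keratinocyte proteins involved in the selection and upkeep of epidermal T cells. Skint10 changed by -3.88 ± 0.34, -2.40 ± 0.32 and -2.04 ± 0.31 in DNCB, scMSC and scivMSC skin and kept its call in each of the 12 fits. Of 7 Skint genes tested 2 were lower in all 3 groups, beside 2.19% of all genes. Skint7 kept its call in 6 of the 12 fits and lost it without control replicates 1 or 3, scMSC replicate 3 or any 1 of the 3 scivMSC libraries. Ighm, the heavy chain of IgM, fell from 12.7, 9.76 and 20.8 FPKM in control skin to a median of 4.22 FPKM in exposed skin, and lost its call without DNCB replicate 3. Of 30 interferon-stimulated genes 11 were lower in the exposed mean, beside 6.18% of all genes, with a median of -0.80. In all 3 groups 2 were lower, beside 2.19%. These 2 were Psmb9, an immunoproteasome subunit, with changes of -1.39 ± 0.30, -1.93 ± 0.30 and -1.29 ± 0.30, and Ifi27l2a, which was called in only 3 of the 12 fits, those without control replicate 2, scMSC replicate 1 or scivMSC replicate 2. Psmb9 lost its call without scivMSC replicate 1. Control replicate 3 was the highest library for both genes. The summed level of the list was 208, 198 and 395 FPKM in the control libraries, so control replicate 3 stood apart there too. The exposed libraries lay between 81.5 and 207.9 FPKM, the highest of them above control replicate 2. Of 18 dendritic and Langerhans cell genes 6 were lower in the exposed mean, beside 6.18% of all genes, with MHC class II genes among them. Their summed level was 206, 198 and 323 FPKM in the control libraries and 74.4 to 213.5 FPKM in the exposed libraries, which thus overlapped. H2-Aa changed by -1.09 ± 0.23 in the exposed mean, and its change in scivMSC skin, -0.75 ± 0.30, did not pass the test (edgeR adjusted p = 0.13). Of 19 genes whose symbols mark them as MHC class I, 5 were lower in all 3 groups, beside 2.19% of all genes. This family was also looked at after its values were seen. The 5 genes were H2-Q5, H2-Q6, H2-Q7, H2-T22 and H2-K2, and their close likeness leaves the single values uncertain.

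Of 30 genes of dermal matrix and fibroblasts, 21 were higher in DNCB, 1 in scMSC and 1 in scivMSC skin. In either direction, 14.2%, 9.32% and 6.85% of all genes were called in these groups. The list medians were 2.05, 0.35 and 0.63 in the same order. In the exposed mean 11 were higher, beside 4.8% of all genes, and 1 was higher in all 3 groups, beside 1.5%. That gene was Col12a1, the chain of collagen XII. It measured 1.15, 1.20 and 1.73 FPKM in the control group, 46.9, 47.7 and 39.9 in the DNCB group, 4.74, 4.04 and 2.87 in the scMSC group and 4.23, 6.47 and 2.35 in the scivMSC group. Its change was 4.87 ± 0.35 in DNCB skin and 1.36 ± 0.30 and 1.49 ± 0.30 in the MSC groups, and the call was lost without control replicate 1 or 2 or scMSC replicate 2. Col1a1, the main collagen of the dermis, was called higher in DNCB skin, by 3.53 ± 0.66, but not in scMSC (0.89 ± 0.60, edgeR adjusted p = 0.34) or scivMSC skin (1.50 ± 0.61, adjusted p = 0.13). Outside the list Lrrc15, a membrane protein of activated fibroblasts, Cthrc1, a secreted protein of injured matrix, and Mdk, the growth factor midkine, were singled out after their values were seen. Lrrc15 measured 1.64, 4.06 and 1.26 FPKM in the control group, 46.2, 60.4 and 27.2 in the DNCB group, 79.7, 239 and 49.3 in the scMSC group and 67.2, 42.7 and 31.9 in the scivMSC group. In scMSC replicate 2, its highest library, the matrix list summed to 698 FPKM, within the 694 to 943 FPKM of the control libraries. The hair list summed to 29983 FPKM in the same library. Which cells the Lrrc15 RNA came from was not tested. Cthrc1 rose by 4.82 ± 0.59, 2.46 ± 0.54 and 2.78 ± 0.54 and Mdk by 2.81 ± 0.31, 1.65 ± 0.30 and 1.55 ± 0.30 in DNCB, scMSC and scivMSC skin, and all 3 genes kept their calls in each of the 12 fits. Of 31 tested genes of Wnt, BMP and Shh signalling in follicles, 2 were higher in all 3 groups, beside 1.5% of all genes. In the exposed mean 5 were higher and 3 lower, and in DNCB skin 3 were higher and 6 lower. The 2 shared genes were the Hedgehog factor Gli2, higher by 1.17 ± 0.24, 1.21 ± 0.24 and 1.19 ± 0.24, and the ligand Wnt5a, by 1.28 ± 0.37, 2.58 ± 0.39 and 1.54 ± 0.38. Gli2 lost its call without control replicate 3, and Wnt5a kept it only without control replicate 2, scivMSC replicate 3 or any 1 of the 3 scMSC libraries. Of 17 tested genes of follicle stem cells and the resting follicle, 1 was lower in all 3 groups, beside 2.19% of all genes. This was Fgf18, a growth factor of the resting follicle, which changed by -1.87 ± 0.30 in the exposed mean. Among the 12 fits it was called in all 3 groups only without control replicate 3, scivMSC replicate 3 or any 1 of the 3 scMSC libraries.

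Skeletal muscle genes had the largest share of lower genes among the lists. Of 18 tested, 12 were lower in all 3 exposed groups and 15 in the exposed mean, against 2.19% and 6.18% of all genes. The median change was -1.80 in the exposed mean, with -2.00 in DNCB and -1.62 in both MSC groups. The 12 genes encode the contractile apparatus of fast fibres (Acta1, Myl1, Mylpf, Tnnt3, Tnni2, Tnnc2, Actn3), calcium handling (Atp2a1, Ryr1, Pvalb) and energy supply (Ckm, Eno3).

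Tnnc2, the calcium sensor of the fast troponin complex (chr2:164777161-164779967, minus strand), measured 4721, 4784 and 3464 FPKM in the control group, 573, 695 and 794 in the DNCB group, 1063, 609 and 1269 in the scMSC group and 939, 674 and 2108 in the scivMSC group. The exposed libraries lay between 573 and 2108 FPKM, and scivMSC replicate 3 was the nearest to control. Its changes were -2.85 ± 0.44, -2.32 ± 0.43 and -1.96 ± 0.42 in DNCB, scMSC and scivMSC skin (edgeR adjusted p of 0.0015, 0.005 and 0.015). Mstn, the muscle growth inhibitor myostatin, fell from 54.0, 68.3 and 104 FPKM in control to 8.17, 12.5 and 17.5 in DNCB, 16.0, 5.18 and 15.2 in scMSC and 9.50, 12.7 and 14.8 in scivMSC skin, with changes of -2.74 ± 0.42, -2.81 ± 0.43 and -2.77 ± 0.42 and a call that held in each of the 12 fits. The small heat shock protein gene Hspb3, which muscle expresses, changed by -2.63 ± 0.41 in the exposed mean. Cox7a1 and Cox8b, cytochrome c oxidase subunits of muscle and fat, changed by -2.28 ± 0.37 and -2.15 ± 0.32. They were 2 of the 3 oxidative phosphorylation genes, of 22 tested, that were lower in all 3 groups, beside 2.19% of all genes. The third was Ndufa4 at -1.13 ± 0.12. Cox7a1 and Cox8b lost their calls without control replicate 1 or scivMSC replicates 1 or 2, Cox7a1 also without control replicate 2 or scMSC replicates 1 or 2. Ndufa4 lost its call under library size scaling. Myhas, an RNA gene that overlaps Myh1 on the other strand, changed by -2.78 ± 0.41, and without a statement on strand in counting its reads cannot be told apart from those of Myh1. The number of shared muscle genes was 5 without control replicate 1, 6 without control replicate 2, 2 without scivMSC replicate 1 and 3 without scivMSC replicate 2, and it was 9 under library size scaling. Tnnc2 and Hspb3 lost their calls without scivMSC replicate 1, and Myhas without scivMSC replicate 2.

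Fat genes followed in part. Of 18 dermal adipocyte genes 2 were lower in all 3 groups and 6 in the exposed mean, beside 2.19% and 6.18% of all genes. The median exposed-mean change was -0.42. Car3, a carbonic anhydrase of fat and muscle, measured 2195, 1876 and 1250.1 FPKM in the control group, 324, 364 and 475 in the DNCB group, 754, 411 and 803 in the scMSC group and 529, 543 and 744 in the scivMSC group. Gpd1, a glycerol phosphate dehydrogenase, changed by -1.96 ± 0.24, -1.95 ± 0.24 and -1.33 ± 0.23, and both kept their calls in each of the 12 fits. Adipoq, the adipocyte hormone adiponectin, changed by -0.32 ± 0.29 in the exposed mean (edgeR adjusted p = 0.48). Of the 41 genes for electrophile defence and glutathione, Gpx2, a glutathione peroxidase, was higher and Gstm1, a glutathione transferase, was lower in all 3 groups, with exposed-mean changes of 1.53 ± 0.31 and -1.22 ± 0.18. A share of 1 in 41 in each direction is near that among all genes, 1.5% and 2.19%. Gpx2 kept its call only without DNCB replicate 1, scMSC replicates 1 or 3, or scivMSC replicate 3. Gstm1 kept it in each of them but lost it under library size scaling.

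Several circadian clock genes changed in all exposed groups. The clock is a loop of activators and repressors that times gene expression over the day, and Dbp, Hlf and Nr1d1 are among the genes that swing widely under it. Of 18 clock genes 4 were lower in all 3 groups (Dbp, Nr1d1, Hlf, Per3) and 1, Nfil3, was higher. Among all genes 2.19% were lower and 1.5% higher in all 3 groups. Dbp (chr7:45705088-45710203, plus strand) measured 40.9, 39.6 and 48.6 FPKM in the control group, 8.41, 10.3 and 7.98 in the DNCB group, 12.7, 7.07 and 9.64 in the scMSC group and 4.07, 4.14 and 5.40 in the scivMSC group, with changes of -2.45 ± 0.21, -2.30 ± 0.21 and -3.41 ± 0.22 and edgeR adjusted p of 0.00034, 0.00078 and 0.00019. Nr1d1, a repressor in the loop, measured 53.2, 41.5 and 44.5 FPKM in the control group, 18.8, 17.7 and 19.9 in the DNCB group, 21.1, 13.4 and 13.4 in the scMSC group and 8.77, 10.5 and 9.48 in the scivMSC group. Nfil3, a repressor that binds the same DNA element as Dbp, rose from 7.04, 6.54 and 5.18 FPKM in control to 19.0, 19.9 and 18.7 in DNCB, 22.3, 33.5 and 25.2 in scMSC and 25.4, 22.6 and 18.1 in scivMSC skin. Hlf and Per3 changed by -1.59 ± 0.18 and -1.23 ± 0.18 in the exposed mean. Dbp, Nr1d1, Hlf and Nfil3 kept their calls in each of the 12 fits. Among other parts of the loop, the repressors Cry2 and Bhlhe41 were lower in the exposed mean but not called in all 3 groups, with changes of -1.03 ± 0.10 and -1.34 ± 0.20. Per1 and Arntl did not pass the test. Arntl, an activator, changed by 0.29 ± 0.17 (edgeR adjusted p = 0.25) and Per1 by -0.07 ± 0.27 (adjusted p = 0.88). The hours of killing are not given in the sources used here. The E-box CACGTG was in none of the 5 promoter windows of these genes and in 8.50% of all windows, and TTATGTAA, the element of Dbp and Nfil3, was in the window of Per3 and in 0.866% of all windows.

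**Figure D3:**
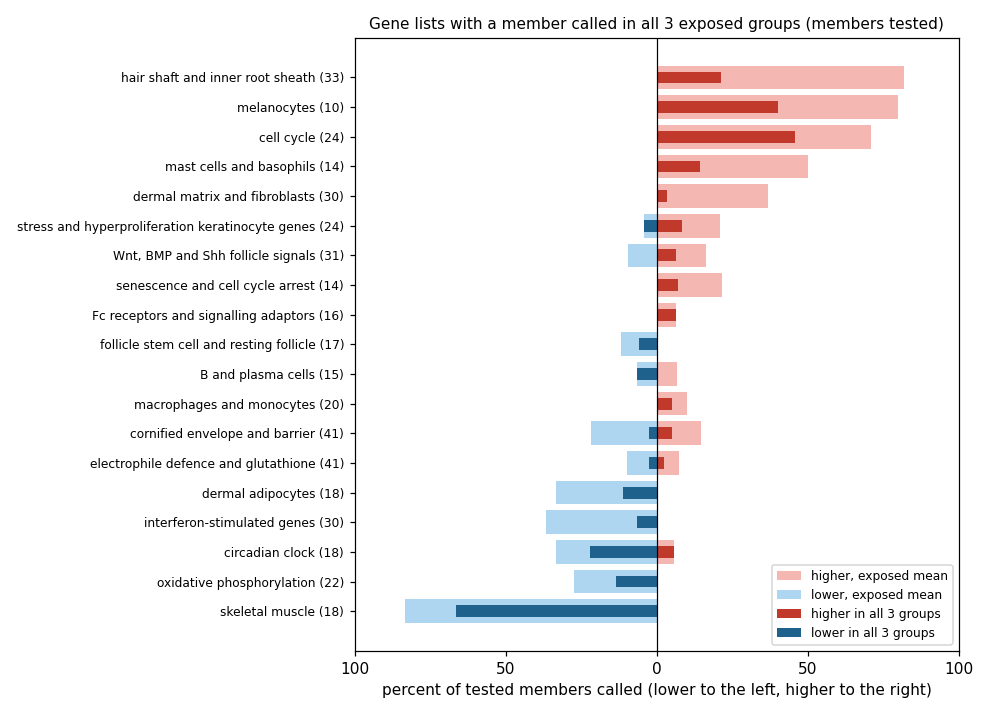
Share of the tested members that were called in each gene list with a member called in all 3 exposed groups, with higher genes to the right and lower genes to the left. Wide pale bars show the exposed mean against control, narrow dark bars show genes called in all 3 exposed groups, and the number of tested members is in parentheses. Skeletal muscle has the largest share of lower genes (12 of 18 in all 3 groups), and cell cycle the largest share of higher genes called in all 3 groups (11 of 24).

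The shared changes did not all have the same size in the 3 groups. Of the 328 higher genes, 135 had their largest change in DNCB skin, 151 had their smallest there, and 42 lay between the MSC groups. Of the 479 lower genes, 299 had their largest change in DNCB skin, 96 their smallest, and 82 lay between. The others, F830045P16Rik and Gm2564, were at 0 in every exposed library and so had equal values in the 3 groups. Of all genes tested, 992 (4.53%) were called between DNCB and both MSC groups, and 67 of the shared genes were among them, 53 higher and 14 lower than control. Of the 53, 47 were higher still in the MSC groups, with hair genes such as Krt34 and Krtap15 and the pigment gene Tyrp1 among them. The other 6, with Col12a1, Cthrc1, Mdk and Upp1 among them, were higher in DNCB than in MSC skin. All 14 lower genes had their largest change in DNCB skin, with Krt77, Adh6a, Fcgbp, Calcb, Tesc, Skint10 and Hlf among them. For 233 of the higher and 453 of the lower genes no difference between exposed groups was called, which does not show that their levels were alike. The 67 became 15 without DNCB replicate 1, 22 without DNCB replicate 2, 20 without DNCB replicate 3, 28 without control replicate 1, 104 without control replicate 2, 31 without control replicate 3, 19 without scivMSC replicate 1 and 35 without scivMSC replicate 3.

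Fcgbp, an Fc-binding protein, illustrates the lower set with 9.23, 5.26 and 10.7 FPKM in the control group, 0.0515, 0.0824 and 0.132 in the DNCB group, 2.11, 0.883 and 0.543 in the scMSC group and 1.78, 0.561 and 1.80 in the scivMSC group. Calcb, a calcitonin gene-related peptide, measured 5.17, 7.31 and 8.14 FPKM in control, 0.0972, 0.0743 and 0.135 in DNCB, 2.37, 0.801 and 0.813 in scMSC and 2.35, 0.871 and 1.15 in scivMSC skin. In both genes the MSC groups were between DNCB and control skin without overlap with either. Tesc, the calcium-binding protein tescalcin, changed by -4.10 ± 0.37, -2.14 ± 0.33 and -2.61 ± 0.34, and its lowest control library, at 6.74 FPKM, was above its highest exposed library, at 3.04 FPKM.

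**Figure D4:**
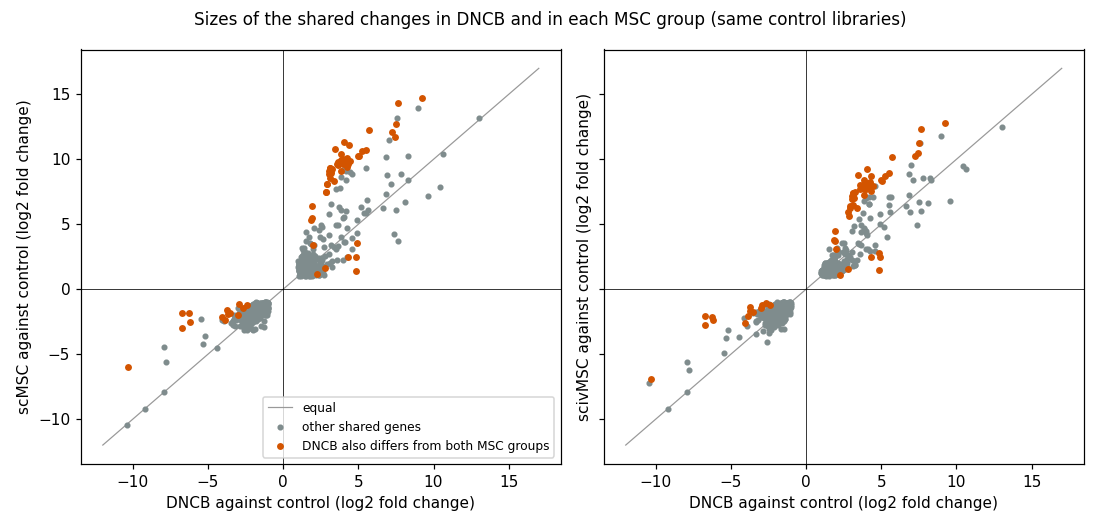
Log2 fold change against control of the 807 shared genes, with DNCB skin on the horizontal axis and scMSC (left) or scivMSC skin (right) on the vertical axis, 1 point per gene and a line of equal change. The 67 genes that also differed between DNCB and both MSC groups are orange. The comparisons share the control libraries, and points above the line among the higher genes are larger in MSC skin.

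Of 57 genes that the running text of the study names for dorsal skin, all tested, 38 were called between DNCB and control skin, 5 between scMSC and control, and 1 between scivMSC and control. Among all genes tested, 14.2%, 9.32% and 6.85% were called in these comparisons, so the counts of 5 and 1 are not above the background. By edgeR, 0 were called in the same direction in all 3 groups, beside 1.5% higher and 2.19% lower among all genes tested, so that a count of 0 lies near the background. Likewise DESeq2 and limma on log2(FPKM + 0.1) called 0. Genes listed only in the supplementary material of the study were not part of this count, and some of them belong to the shared set, such as Fam57b among the lower genes and Col12a1, Mdk and Upp1 among the higher ones. At an unadjusted p under 0.05 there were 5, namely Il1r1, Il17ra, Bdkrb2, Cdkn2a and Cldn23. The study chose these genes on the same samples, so their counts are not independent evidence of any direction. Of the 810 genes called in all 3 groups, only 3 were not called in one direction. G0s2, an inhibitor of fat breakdown, measured 17.9, 17.7 and 16.0 FPKM in the control group, 70.4, 79.0 and 50.8 in the DNCB group, 4.50, 7.25 and 7.94 in the scMSC group and 3.97, 6.76 and 11.3 in the scivMSC group, above control in DNCB and below it in both MSC groups. Sprr2b, a cornified envelope precursor, had the same pattern with 9.03, 11.8 and 22.2 FPKM in the control group, 69.7, 169.9 and 102 in the DNCB group, 1.25, 1.51 and 1.59 in the scMSC group and 4.84, 6.69 and 5.66 in the scivMSC group. Car6, a secreted carbonic anhydrase, had the opposite one with 3.63, 4.70 and 6.88 FPKM in the control group, 2.35, 0.704 and 1.41 in the DNCB group, 28.1, 52.3 and 15.3 in the scMSC group and 35.5, 15.5 and 13.2 in the scivMSC group.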

How the data were processed

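Dorsal skin RNA of 12 mouse samples, 3 per group, was sequenced by the authors and summarised in 1 table of FPKM values and estimated counts per gene. Per the labels, the submitters' processing notes name HISAT2 2.0, StringTie 1.3.0, Bowtie 0.12.2 and build mm8, but the deposited gene positions overlap those of GENCODE M21 on GRCm38 for 36285 of 36287 genes matched by identifier. How multiply mapped reads and strand were treated is not given in the sources used here. The deposited FPKM values are scaled by the authors for transcript length and depth, and were used for levels, the filter and the limma alternatives. The deposited estimated counts are whole numbers that sum to between 63877153 and 75134001 per library. Between 38.95% and 41.25% of those from 1 to 18 were multiples of 4, so a floor of 12 (3 times 4) was used for genes without counts in control skin. It covers counting error only.

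The 21890 genes whose mean over the libraries reached 0.1 FPKM were tested on the estimated counts with edgeR 4.0.16 (TMM factors, quasi-likelihood F-test, 1 model of 4 groups, two-sided), with Benjamini-Hochberg adjustment over all of them. A gene was called at an adjusted p under 0.05 and a log2 change over 1, and the SE of a change is its size divided by the square root of F. Groups came from the sample titles. Named genes were the 12 with the largest exposed-mean change in each direction among genes called in all 3 groups with a mean of at least 1 FPKM, libraries that did not overlap with control and a named symbol, up to 4 shared members of each gene list by the same measure, and the 4 in each direction whose change differed most between DNCB and both MSC groups. Genes beyond this rule, list members named for contrast included, were chosen after their values were seen. Members and lists were chosen with earlier results of these data known. Alternatives were DESeq2 1.42.0, library size scaling, other filters, counts divided by 4, limma 3.58.1 on log2(FPKM + 0.1) or log2(FPKM + 1), the replicate number as a block, the 9 exposed libraries as 1 group, no fold limit, and each library left out in turn. The steps were tested on simulated counts. Promoter windows came from RefSeq (GRCm38.p6) and were searched on both strands. No column was left unmapped. Some genes are not reported here.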

Additional observations from a re-analysis of the deposited data

Results flagged for a closer look

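For 11 genes listed here, out of 992 called in this way, the change against control differed between DNCB and both MSC groups. The test was edgeR's test of that difference with adjustment over all genes. Apart from the 3 genes called in opposite directions, they were picked because this difference was called and among the largest, 4 in each direction. That they differ was thus fixed by the selection. The values are differences in log2 fold change, DNCB minus scMSC and DNCB minus scivMSC. The 3 groups share the control libraries, which cancel in these differences. Among the hair genes, Krtap14 differed by -7.36 and -5.34, Krtap15 by -7.29 and -5.19, Krtap12-1 by -6.66 and -4.68, and Krtap9-3 by -6.59 and -4.56, so each was lower in DNCB than in MSC skin while above control in all 3 groups. Among the genes that were below control in all 3 groups, Lce1m differed by -4.88 and -4.69, Adh6a by -4.39 and -4.13, Krt77 by -4.31 and -3.39 and Fcgbp by -3.73 and -3.97. The 3 genes called in opposite directions were Sprr2b, at 6.26 and 4.31, G0s2, at 3.31 and 3.15, and Car6, at -4.47 and -3.84. Krtap14 and Krtap15 overlap on opposite strands, Sprr2b has close relatives and G0s2 overlaps Lamb3, so the assignment of their reads is uncertain.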

How the results depend on the processing

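The 3 control libraries enter every comparison, and the spread between 3 libraries sets what could be called. No alternative turned the exposed-mean direction of a shared named gene, but the balance of shared genes turned from more lower to more higher under library size scaling (557 against 354) and limma on log2(FPKM + 0.1) (504 against 418). Of 1615 values for 77 named genes 1612 kept direction and side of the threshold, and 3 lost the call when the 9 exposed libraries were 1 group, Lce1m at -2.51, Adh6a at -2.53 and Col12a1 at 3.53, which then share 1 spread. Of the 77 genes 30 stayed called in all 3 groups in each of 20 settings and 37 in each leave-one-out fit. Leaving out 1 library gave 165 to 412 shared higher genes, 261 to 635 shared lower, 729 to 1069 higher and 1079 to 1610 lower in the exposed mean, 2457 to 3225 called in DNCB, 1364 to 2326 in scMSC and 843 to 1798 in scivMSC skin, and 15 to 104 shared genes that differed between DNCB and both MSC groups. Chosen after seeing the data, the same was done for 6 lists and gave 0 to 21 hair, 3 to 6 melanocyte, 4 to 16 cell cycle and 0 to 5 mast cell genes higher, and 2 to 13 muscle and 3 to 5 clock genes lower. DESeq2 raised the count that differed between DNCB and both MSC groups from 67 to 137. Library size scaling gave 557 shared higher genes. With limma on log2(FPKM + 0.1), 504 shared genes were higher, 1601 in the exposed mean, and 105 differed between DNCB and both MSC groups. With log2(FPKM + 1) there were 181 shared higher and 313 shared lower genes, 553 lower in the exposed mean, 1300 called in scMSC skin and 35 between DNCB and both MSC groups. The cause was not tested for these settings. Without a fold limit, which admits smaller changes, the counts were 829 and 954 shared, 2794 and 2760 in the exposed mean, 5541, 4049 and 2899 in the 3 comparisons and 106 between DNCB and both MSC groups. Replicate numbers did not pair the samples, since only 1 of 18 same-numbered pairs correlated above 0.1 and 2 of 12 libraries correlated best with their own number. With the replicate number as a block the shared counts were 269 and 479, 30 genes differed between DNCB and both MSC groups, and 3 hair genes, without Krt34, were shared.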

Other observations

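Of all genes tested, 14.2% were called in DNCB, 9.32% in scMSC and 6.85% in scivMSC skin in either direction. In the exposed mean 4.8% were higher and 6.18% lower. In all 3 groups 1.5% were higher and 2.19% lower, so a short list with no shared member lies near the background. The counts of 0, 1 or 2 in the MSC groups below are likewise at or under these shares. Of 16 neutrophil genes 15 were higher in DNCB, 0 in scMSC and 1 in scivMSC skin by edgeR. None was called in all 3 groups, nor by DESeq2 or limma, and 1 was at an unadjusted p under 0.05. The median change was 4.85 in DNCB, -0.31 in scMSC and 0.71 in scivMSC skin. Of 23 genes for matrix proteases and their inhibitors 15 were higher in DNCB, 0 in scMSC and 2 in scivMSC skin, and 8 in the exposed mean, among them Mmp14, the urokinase receptor gene Plaur and the protease inhibitor gene Timp1. By edgeR 0 were called in all 3 groups, by limma 0 and by DESeq2 2, with 4 at an unadjusted p under 0.05. Of 24 sebaceous lipid genes 16 were lower in DNCB, 1 in scMSC and 0 in scivMSC skin, and 8 in the exposed mean, with the fatty acid enzymes Scd1, Fasn and Elovl6 among them. By edgeR and limma 0 were lower in all 3 groups and by DESeq2 1, with 3 at an unadjusted p under 0.05. Whether these lists differed between the exposed groups was not tested here.

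A few transcripts were present in control skin and at or under the floor of 12 estimated counts in every exposed library. F830045P16Rik had 82, 30 and 75 estimated counts in the control libraries and 0 in all 9 exposed libraries. Gm2564 had 25, 23 and 28 and likewise 0 in all 9. Both were singled out after their values were seen.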
